A study of Homo sapiens with 6 samples.

Results

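The mitochondrial ribosomal protein genes are the nuclear genes whose symbols begin with MRPL or MRPS, followed by a number and at most 1 letter. Of the 26364 gene symbols in the expression table, 77 met this description, and 48 of them carried MRPL symbols (large subunit) and 29 carried MRPS symbols (small subunit). RNAseq had been performed on A673/TR/shEF, a derivative of the Ewing sarcoma line A673, which expresses the EWSR1::FLI1 fusion. The derivative holds a tetracycline repressor and an shRNA against the fusion mRNA that is made only when doxycycline is added. The 3 untreated samples are called EWSR1::FLI1 high and the 3 samples treated for 72 h with doxycycline at 1 µg/mL are called EWSR1::FLI1 low. All 6 carried the repressor and the shRNA construct, and were cultured in DMEM with serum, Blasticidine and Zeocin. Every EWSR1::FLI1 low sample had received both the drug and the shRNA, so the effect of doxycycline and that of the knockdown cannot be told apart here. The sources describe the replicates of a condition both as independent clones and as numbered experiments, so p-values measure only the spread between these samples, which may be technical. Values of a condition are given in the order of its replicates 1, 2 and 3.

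Mitochondria keep their own ribosome, which translates the few proteins encoded by mitochondrial DNA, all of them subunits of the respiratory chain and the ATP synthase. Its RNA comes from mitochondrial DNA, while its proteins are encoded in the nucleus, made in the cytosol and imported. The mitochondrial ribosome descends from a bacterial ribosome, and doxycycline, an antibiotic that binds the bacterial small subunit, also inhibits translation in mitochondria. Doxycycline-inducible models therefore expose the mitochondrial ribosome to one of its inhibitors whenever the transgene is switched on, and the question asked here is whether the genes of that ribosome differed between the conditions.

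Expression is given as FPKM (fragments per kilobase of transcript, scaled for depth and deposited by the authors), a level per length. It compares genes only as far as the lengths used for them are right. In EWSR1::FLI1 high replicate 1, for example, MRPS18B had 448 reads at 4.06 FPKM, and MRPS18C 503 reads at 43.5 FPKM. The mitochondrial ribosomal protein genes were well expressed, with a mean FPKM between 1.14 (MRPS24) and 161 (MRPL51 and MRPS6) and a median of 34.9 over the 77 genes. Of the 77, 74 lay above the median of the 15504 genes tested, which had a mean FPKM of at least 0.5, and all 77 passed this filter. MRPL12, which forms the flexible stalk that receives translation factors, and MRPS12, a protein of the decoding centre, were present in every library, at 8.53 to 26.7 and 3.15 to 10.3 FPKM. Reads on a member ranged from 2 to 3851 per library with a median of 444.5, so counting error was small for most members but not for MRPS24.

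The knockdown was visible in the fusion partner. FLI1, whose 3' part is in the fusion, stood at 11.3, 12.7 and 14.2 FPKM in the untreated samples, and at 2.91, 4.29 and 3.68 in the treated samples. It fell by 1.57 on the log2 scale (adjusted p = 0.000676, limma). All 10 Ewing sarcoma markers examined were lower in every EWSR1::FLI1 low library than in any EWSR1::FLI1 high library, beside 23.6% of all genes tested. Of the 10, 7 passed the limit of 0.01 on the adjusted p, beside 3.37% of all genes called lower, led by PPP1R1A (-4.00), CCK (-3.30) and LOXHD1 (-2.83). Markers of other cell types were summed in each library. The 5 epithelial markers summed to 0.834 to 1.88 FPKM in EWSR1::FLI1 high and 1.65 to 1.75 in EWSR1::FLI1 low, with KRT19 at 0 in EWSR1::FLI1 high replicate 2. The 5 leukocyte markers summed to 6.56 to 9.77 and 6.66 to 20.2 FPKM, nearly all of it CD68, with CD14 at 0 in EWSR1::FLI1 high replicate 3. The 4 endothelial markers summed to 0.881 to 1.30 FPKM in EWSR1::FLI1 high and 7.36 to 9.49 in EWSR1::FLI1 low. Of these, KDR (a receptor for vascular growth factor) rose by 2.52 on the log2 scale (limma, adjusted p = 0.000108). PECAM1 was also higher without overlap, at 0.278, 0.366 and 0.348 FPKM against 0.934, 1.56 and 0.879 (log2 fold change 0.66, limma, adjusted p = 0.0333). CDH5 and VWF were at most 0.518 FPKM in every library. The part of these genes in the results for mitochondrial ribosomal protein genes was not tested.

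EWSR1::FLI1 low replicate 1 stood apart from the other libraries. Its FPKM values summed to 255956, against 334614 to 366060 in the other 5, and pairs of EWSR1::FLI1 low libraries differed more in their read counts (chi-square per degree of freedom of 23.3 to 36.9) than pairs of EWSR1::FLI1 high libraries (4.75 to 7.17). Total reads on genes ranged from 6980361 in EWSR1::FLI1 low replicate 1 to 16658933 in EWSR1::FLI1 low replicate 3. Results that rest on these libraries are therefore given with and without them.

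Mitochondrial ribosomal protein genes were lower as a group in EWSR1::FLI1 low cells. The log2 fold change (EWSR1::FLI1 low minus EWSR1::FLI1 high, of log2(FPKM + 1)) was below 0 for 74 of the 77 genes, beside 54.8% of all genes tested, and its median was -0.55 with quartiles of -0.71 and -0.36, beside a median of -0.05 over all genes tested. In 47 of the 77 (61.0%) every EWSR1::FLI1 low library lay below every EWSR1::FLI1 high library, which was so for 23.6% of all genes. The opposite, every EWSR1::FLI1 low library above every EWSR1::FLI1 high library, held for 1 member, MRPS6, and for 17.5% of all genes. In a bulk sample, fewer cells that use a gene and less of its RNA per cell cannot be told apart.

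Few members passed the test on their own. At the limit of adjusted p under 0.01 (limma, Benjamini-Hochberg over the 15504 genes), 3 members were called, beside 7.88% of all genes in either direction. MRPL57 and MRPS9 fell (2 of 77, beside 3.37% of all genes called lower) and MRPS6 rose (1 of 77, beside 4.51% called higher). At an adjusted p under 0.05 the members called lower numbered 17, or 22.1% of the 77, beside 9.91% of all genes, and MRPS6 was the 1 called higher, beside 9.87%. At an unadjusted p under 0.05, 42 of the 77 were lower, beside 18.7% of all genes, and 1 was higher, beside 15.6%. Quantile normalization, which forces the same distribution on every library, gave 14 of the 77 lower, beside 6.45% of all genes, and 1 higher, beside 6.4%, at the limit of 0.01. Scaling by median ratios left the members called lower at 2. Whether the members' share of calls at 0.01 lay below or above that of all genes therefore depended on the processing. It also depended on which libraries were used, as given below.

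**Figure D1:**
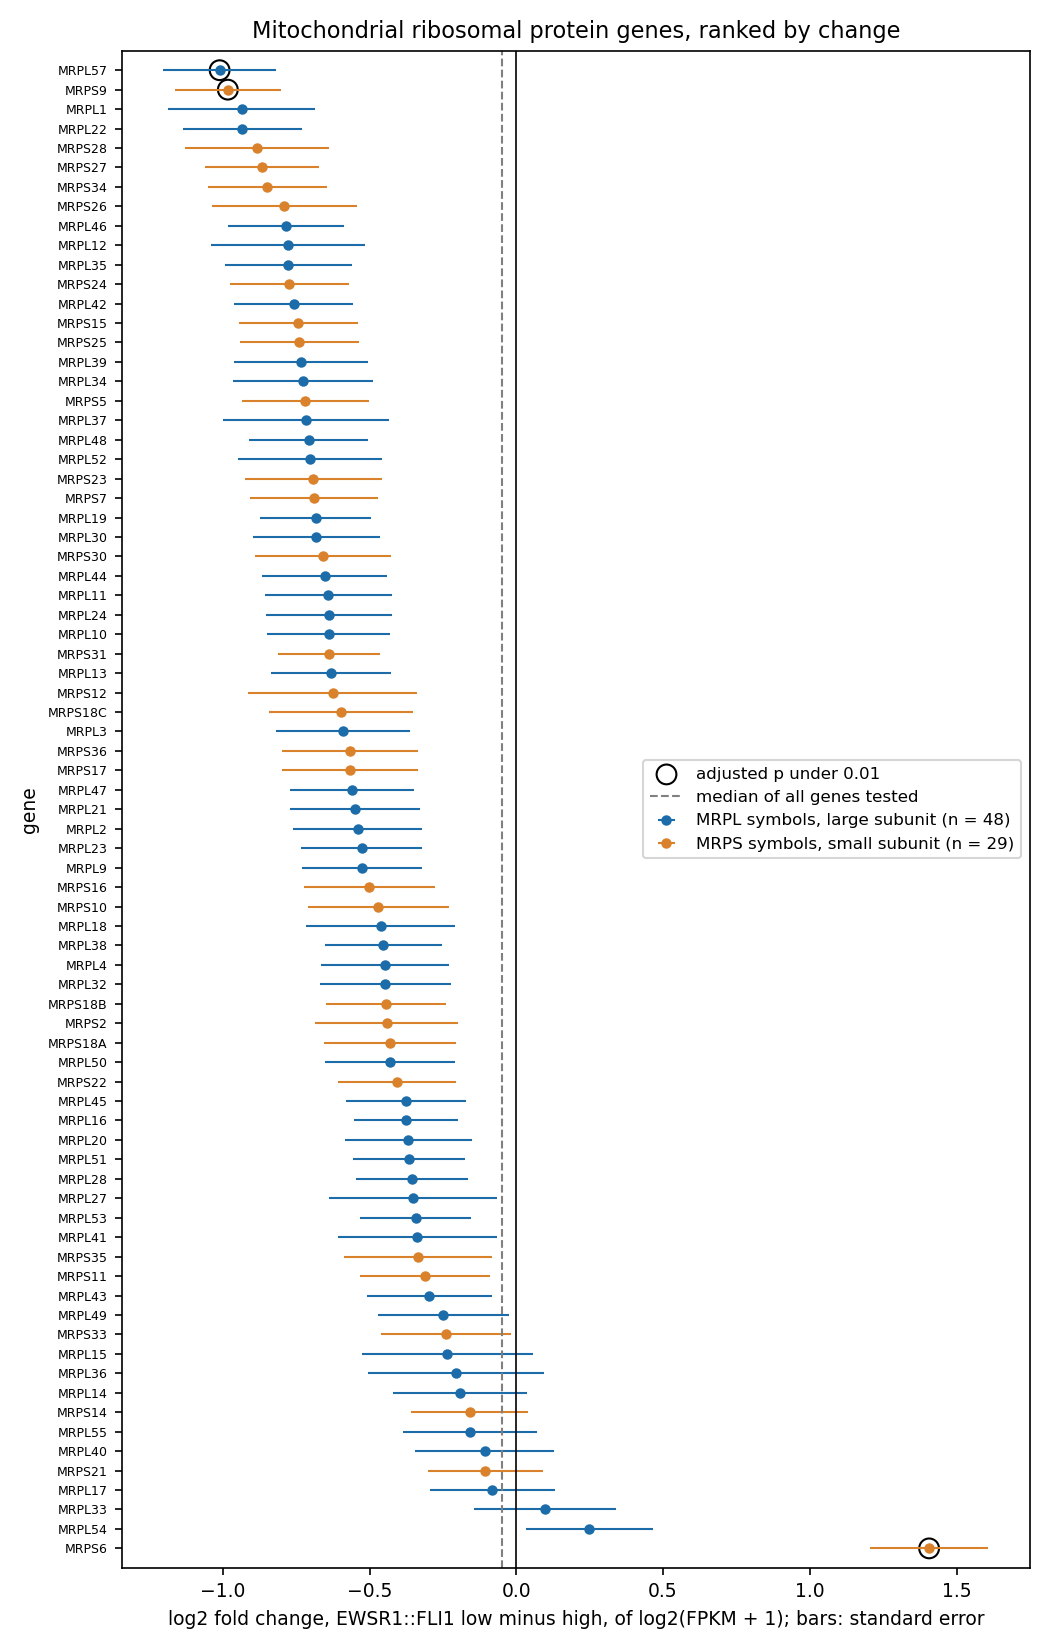
Log2 fold change of log2(FPKM + 1), EWSR1::FLI1 low minus EWSR1::FLI1 high (x axis), of each of the 77 mitochondrial ribosomal protein genes (y axis, ranked), with standard errors from limma (n = 3 per condition), coloured by MRPL or MRPS symbol. Of the points, 74 lie left of 0 around a median of -0.55, MRPS6 alone lies far to the right at 1.41, the circled genes passed adjusted p under 0.01, and the dashed line is the median of all genes tested (-0.05).

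The size of the difference depended on the library. Relative to the mean of the EWSR1::FLI1 high libraries, the median member stood at -0.08, -0.03 and 0.11 (log2) in the untreated samples, and at -0.89, -0.53 and -0.19 in the treated samples. Thus the 3 EWSR1::FLI1 low medians all lay under the 3 EWSR1::FLI1 high medians, but spread widely, with an SD of 0.349. Over all genes tested the same medians were -0.16, -0.06 and 0.02 in the treated samples, so the library in which the members were lowest was also the one in which all genes were lowest. EWSR1::FLI1 low replicate 1 held the lowest value of all libraries for 68 members, and EWSR1::FLI1 low replicate 3 held the highest of the EWSR1::FLI1 low values for 75. Members under every EWSR1::FLI1 high library numbered 76 in EWSR1::FLI1 low replicate 1, 66 in replicate 2 and 47 in replicate 3.

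Without EWSR1::FLI1 low replicate 1, the median log2 fold change of the members was -0.36, beside -0.03 over all genes tested in that fit, and 68 members were below 0. With EWSR1::FLI1 low replicates 2 and 3 alone, 47 members lay below every EWSR1::FLI1 high library, beside 28.2% of all genes. Without EWSR1::FLI1 low replicate 3 the median was -0.72, and 75 members were below 0. The number of members called lower at adjusted p under 0.01 was 3 without EWSR1::FLI1 low replicate 1, beside 5.41% of all genes in that fit, and 7 without EWSR1::FLI1 low replicate 3, beside 4.35%. It was 0 without EWSR1::FLI1 low replicate 2 (beside 1.82%) and without EWSR1::FLI1 high replicate 1, 2 or 3 (beside 1.26, 1.08 and 0.992%).

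**Figure D2:**
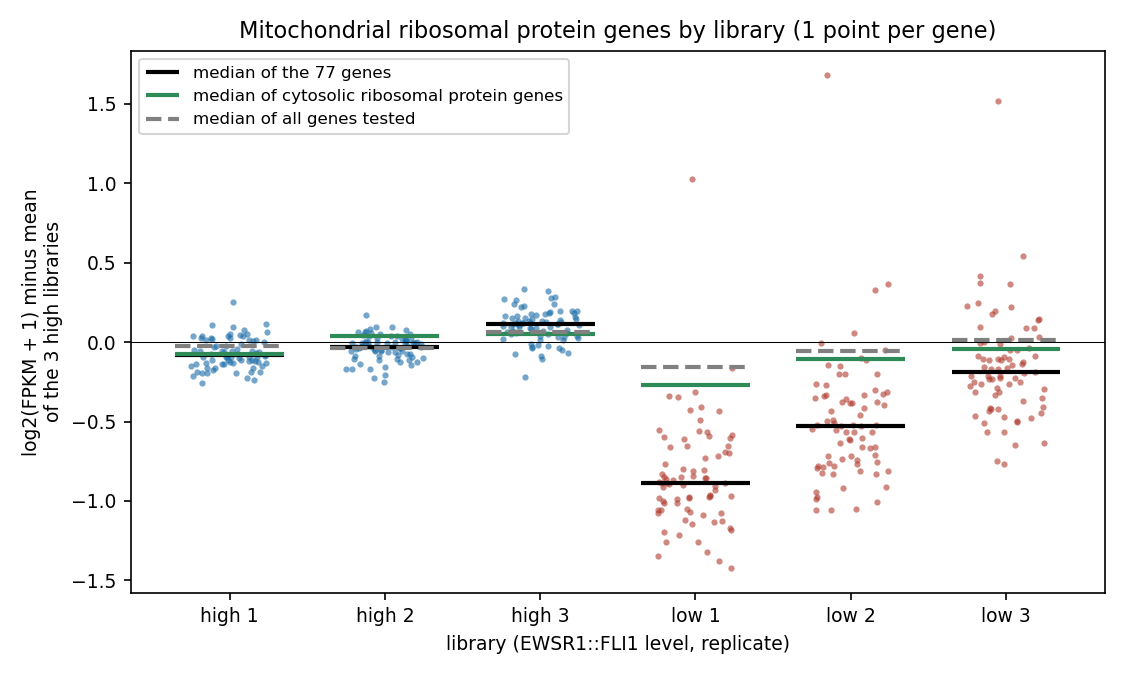
Each point is 1 of the 77 mitochondrial ribosomal protein genes in 1 library (x axis), as log2(FPKM + 1) minus the mean of the 3 EWSR1::FLI1 high libraries (y axis). Black bars give the members' median (-0.89, -0.53 and -0.19 in the treated samples), green bars that of cytosolic ribosomal protein genes (-0.27, -0.11 and -0.04) and dashed grey bars that of all genes tested, and the point far above the others in each EWSR1::FLI1 low library is MRPS6.

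The members together summed to 3715, 3876 and 4242 FPKM in the untreated samples, and to 2258, 2979 and 3653 in the treated samples. As a share of all FPKM in the library this was 1.11, 1.13 and 1.16% against 0.882, 0.880 and 1.02%. The shares of the conditions did not overlap, and on this scale, which takes out the smaller total of EWSR1::FLI1 low replicate 1, that library and replicate 2 stood at the same level.

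Members of both subunits were lower in most cases. The shares of all genes to read these counts against are 54.8% below 0, 23.6% lower without overlap, 3.37% called lower at adjusted p under 0.01 and 9.91% at 0.05. Of the 48 genes with MRPL symbols, 46 were below 0 with a median log2 fold change of -0.53, 29 did not overlap between the conditions, 1 (MRPL57) was called lower at adjusted p under 0.01 and 8 at 0.05. Of the 29 genes with MRPS symbols, 28 were below 0 with a median of -0.60, 18 were lower without overlap, 1 (MRPS9) was called lower at 0.01 and 9 at 0.05. The symbols follow history rather than structure in a few cases, since MRPS18A and MRPS30 have been placed in the large subunit and MRPS36 is known as a component of the oxoglutarate dehydrogenase complex. MRPS36 had a log2 fold change of -0.57 (limma, adjusted p = 0.122) and MRPS30 one of -0.66 (adjusted p = 0.0782), both named after their values were seen.

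Proteins inherited from the bacterial ribosome and proteins added later were both among the lower members. The 48 members with a counterpart in the bacterial ribosome had a median log2 fold change of -0.53, with 46 below 0 and 29 lower without overlap. For the 29 members without such a counterpart, MRPS36 among them, the median was -0.64, with 28 below 0 and 18 lower without overlap. Of all genes tested, 54.8% were below 0 and 23.6% were lower without overlap. The difference between the groups was not tested.

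MRPL57, a small protein of the large subunit with no bacterial counterpart, showed the largest decrease on the log2(FPKM + 1) scale, which understates that of the least abundant member, MRPS24. It stood at 29.2, 26.2 and 30.7 FPKM in the untreated samples, and at 11.4, 13.8 and 16.4 FPKM in the treated samples. The conditions were far from overlapping, and the EWSR1::FLI1 low mean (13.9 ± 2.497, SD, n = 3) was 48.2% of the EWSR1::FLI1 high mean (28.7 ± 2.29). The gene (ENSG00000173141, GRCh37, chr13:21750797-21753223, plus strand) fell by 1.01 on the log2 scale (SE 0.19, adjusted p = 0.00782, limma). MRPS9, a small subunit protein conserved from bacteria, was expressed at a higher level. It stood at 93.8, 103 and 102 FPKM in the untreated samples and at 44.4, 47.2 and 58.7 in the treated samples. All 3 treated samples lay well under the untreated ones, with an EWSR1::FLI1 low mean of 50.1 ± 7.57 FPKM, 50.4% of the 99.4 ± 4.89 in EWSR1::FLI1 high. MRPS9 (ENSG00000135972, chr2:105654527-105716418, plus strand) fell by 0.98 on the log2 scale (SE 0.18, adjusted p = 0.00661, limma). Both genes were above the limit of 0.01 when any 1 of 4 libraries was left out, and both stayed lower. The adjusted p of MRPL57 was 0.0438, 0.0344 and 0.0490 without EWSR1::FLI1 high replicate 1, 2 or 3, respectively, and 0.0249 without EWSR1::FLI1 low replicate 2, and that of MRPS9 was 0.0336, 0.0476, 0.0444 and 0.0272.

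The next 3 in rank did not pass the limit of 0.01. MRPL1, a protein at the site where spent tRNA leaves the ribosome, stood at 27.8, 33.2 and 40.3 FPKM in the untreated samples and at 11.8, 19.6 and 20.96 in the treated samples, a log2 fold change of -0.94 (limma, adjusted p = 0.0318). MRPL22, which lines the tunnel through which the new protein leaves, stood at 20.6, 21.2 and 20.02 FPKM and at 8.51, 9.41 and 13.6, a log2 fold change of -0.93 (limma, adjusted p = 0.0140). MRPS28, a small subunit protein, stood at 23.9, 28.0 and 28.7 FPKM and at 9.70, 14.8 and 19.2, a log2 fold change of -0.88 (limma, adjusted p = 0.0361). None of the 3 overlapped between the conditions, and in each the untreated samples were closer together than the treated ones, except for MRPL1. MRPS28 shares 35.8% of its exon bases with a neighbouring gene model on the same strand, and how reads on shared exons were counted is not given in the sources used here.

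MRPL12 and MRPS12, taken as markers of the family, were lower without overlap but were not called. MRPL12 stood at 18.7, 20.6 and 26.7 FPKM in the untreated samples and at 8.53, 12.4 and 17.3 in the treated samples. Its log2 fold change was -0.78 (SE 0.26, adjusted p = 0.0679, limma), and 69.5% of its exon bases are shared with another gene model on the same strand. MRPS12 stood at 8.86, 9.48 and 10.3 FPKM in the untreated samples and at 3.15, 7.37 and 8.20 in the treated samples. Most of its difference lay in EWSR1::FLI1 low replicate 1: the log2 fold change was -0.63 (SE 0.29, adjusted p = 0.163, limma) and -0.26 without that library.

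**Figure D3:**
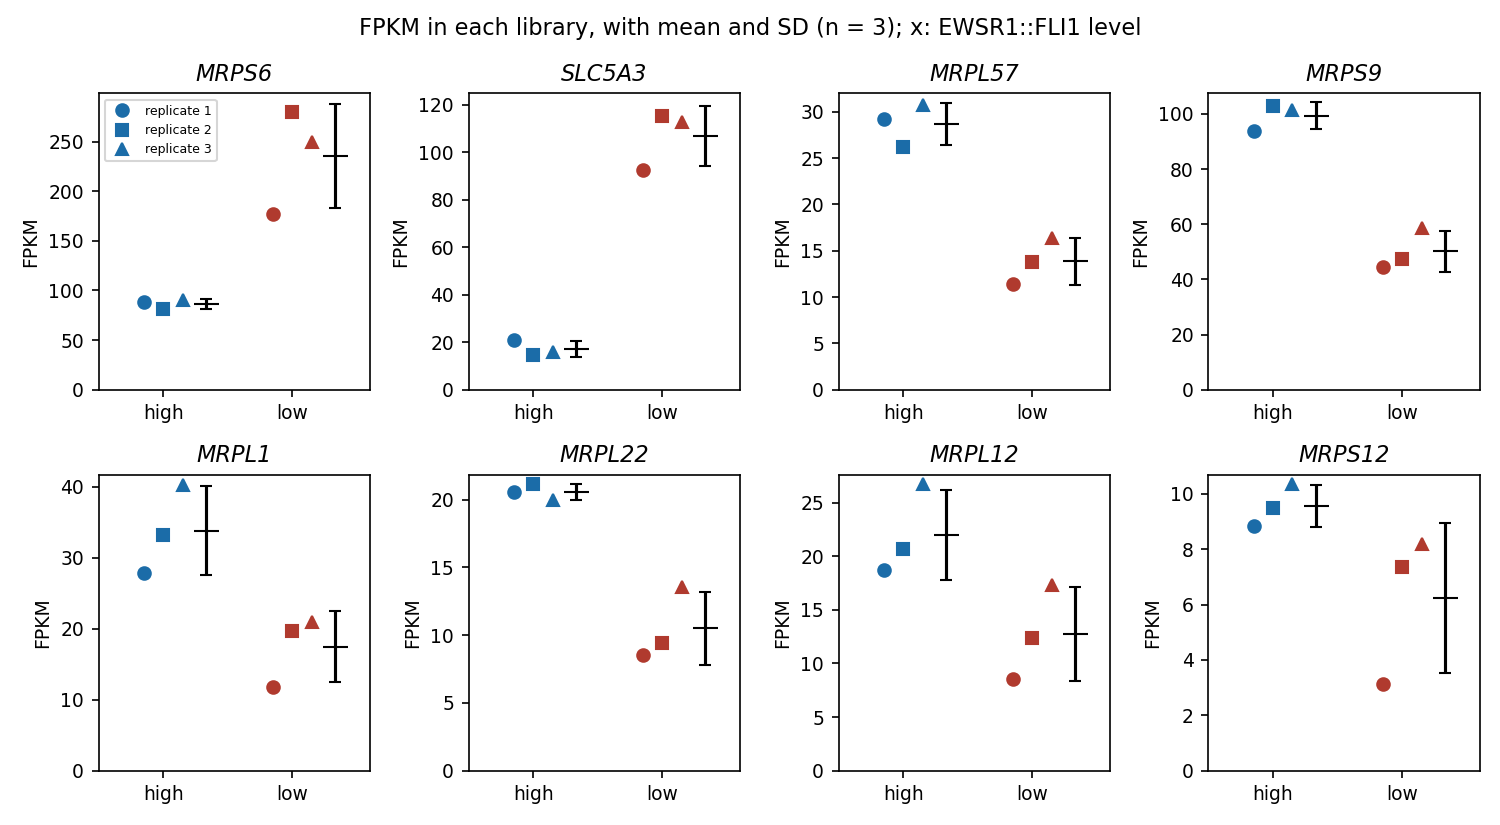
FPKM (y axis of each panel, from 0) in each library of EWSR1::FLI1 high (blue) and EWSR1::FLI1 low (red), with replicates 1, 2 and 3 as circle, square and triangle, and the mean with its SD (n = 3) beside them. MRPS6 and its neighbour SLC5A3 are higher in every EWSR1::FLI1 low library, and MRPL57, MRPS9, MRPL1, MRPL22, MRPL12 and MRPS12 are lower in every one.

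Of the members with the highest mean FPKM, MRPS34 and MRPL51 differed in how far they were lowered. MRPS34, a mitochondria-specific protein needed for a stable small subunit, stood at 157, 167 and 189 FPKM in the untreated samples and at 77.5, 89.5 and 120 in the treated samples (log2 fold change -0.85, adjusted p = 0.0203, limma). MRPL51, a large subunit protein without a bacterial counterpart, stood at 172, 182 and 188 FPKM and at 114, 137 and 174 (log2 fold change -0.37, adjusted p = 0.213, limma, and -0.22 without EWSR1::FLI1 low replicate 1). The conditions did not overlap for MRPS34, but did for MRPL51, where EWSR1::FLI1 low replicate 3 reached the level of the lowest untreated sample. Each shares exon bases with a gene on the opposite strand, MRPS34 with EME2 (31.2% of its own) and MRPL51 with NCAPD2 (27.6%), and whether the counting used strand is not given in the sources used here.

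At the other end, the 3 members with the lowest mean FPKM were MRPS24, MRPS18B and MRPL4. MRPS18B was low in FPKM but not in reads, with 177 to 624 per library, beside a median of 444.5 over the members. MRPS24, a protein near the entry of the mRNA channel, stood at 2.19, 1.62 and 1.30 FPKM in the untreated samples and at 0.485, 0.350 and 0.922 in the treated samples. These values stand for 16, 9 and 7 reads and for 3, 2 and 10 reads, so that its log2 fold change of -0.77 (adjusted p = 0.0285, limma) rests on few reads. As this scale holds back low genes, it was at -1.45 when 0.1 was added in place of 1, and also at -1.45 by limma-voom on the reads (adjusted p = 0.0737), and the EWSR1::FLI1 low mean was 34.4% of the EWSR1::FLI1 high mean. In MRPS24, 23.2% of the exon bases are shared with the readthrough gene URGCP-MRPS24. MRPL4, a protein of the exit tunnel, had a log2 fold change of -0.45 (limma, adjusted p = 0.184), and of -0.24 without EWSR1::FLI1 low replicate 1.

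The 3 copies of the bacterial S18 gene differed in FPKM far more than in change, but were close in reads. In the untreated samples MRPS18A had 609, 436 and 405 reads, MRPS18B 448, 315 and 323, and MRPS18C 503, 459 and 462. The low FPKM of MRPS18B thus comes mostly from the gene length used in the deposited values, not from few reads. Whether that length is right was not tested. MRPS18A stood at 48.8, 46.0 and 43.97 FPKM in the untreated samples and at 30.2, 27.7 and 47.0 in the treated samples. MRPS18B stood at 4.06, 3.76 and 3.97 FPKM and at 1.89, 2.42 and 3.81, and MRPS18C at 43.5, 52.3 and 54.2 and at 23.1, 34.2 and 43.5. In all 3 the conditions overlapped through EWSR1::FLI1 low replicate 3, and the log2 fold changes were -0.43, -0.44 and -0.60 (adjusted p of 0.214, 0.163 and 0.122, limma). Without EWSR1::FLI1 low replicate 1 they were -0.35, -0.28 and -0.36, and that of MRPS18A was -0.66 without EWSR1::FLI1 low replicate 3.

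Members at the top of the ranking other than MRPS6 did not pass the test. MRPL54, a mitochondria-specific protein of the large subunit, stood at 17.1, 17.1 and 15.7 FPKM in the untreated samples and at 14.8, 21.7 and 24.7 in the treated samples (log2 fold change 0.25, adjusted p = 0.457, limma). Its log2 fold change was 0.45 without EWSR1::FLI1 low replicate 1 (limma, adjusted p = 0.0399), 0.10 without EWSR1::FLI1 low replicate 3 and 0.34 with sample quality weights (adjusted p = 0.0424). MRPL33, a large subunit protein conserved from bacteria, stood at 62.2, 72.7 and 80.0 FPKM and at 53.4, 89.7 and 92.4 (log2 fold change 0.10, adjusted p = 0.822, limma). In both genes EWSR1::FLI1 low replicate 1 was the lowest library and the other 2 treated samples were the highest. MRPL17 (-0.08, adjusted p = 0.829) and MRPS21 (-0.11, adjusted p = 0.749) completed the upper end, and their sign turned under quantile normalization (0.076 and 0.10), as that of MRPL17 did without EWSR1::FLI1 low replicate 1 (0.089). MRPL33 was at -0.02 without EWSR1::FLI1 low replicate 2 and at -0.04 without EWSR1::FLI1 low replicate 3.

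MRPS6, a small subunit protein conserved from bacteria, was the exception. It stood at 88.8, 81.0 and 90.4 FPKM in the untreated samples, and at 177, 280 and 250 FPKM in the treated samples. The treated samples lay far above the untreated ones, although EWSR1::FLI1 low replicate 1 was again the lowest of its condition. The mean was 86.7 ± 5.04 FPKM in EWSR1::FLI1 high and 235 ± 52.6 in EWSR1::FLI1 low (SD, n = 3), a ratio of 2.72, and MRPS6 rose with a log2 fold change of 1.41 (SE 0.20, adjusted p = 0.00205, limma). Reads on the gene numbered 923, 639 and 693 in the untreated samples and 1561, 2270 and 3851 in the treated samples. Its log2 fold change without each library in turn lay between 1.27 and 1.597, and the adjusted p was above 0.01 only without EWSR1::FLI1 high replicate 1, 2 or 3, respectively (0.01001, 0.0181 and 0.0139). A row of the expression table is a gene symbol, so transcripts of MRPS6 were not distinguished.

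MRPS6 (ENSG00000243927, GENCODE on GRCh37, chr21:35445524-35515334, plus strand) overlaps SLC5A3 (ENSG00000198743, chr21:35445878-35478559, plus strand), a sodium-coupled transporter of myo-inositol that cells use to adjust to osmotic stress. SLC5A3, named after its values were seen, stood at 21.1, 14.6 and 15.9 FPKM in the untreated samples and at 92.5, 115 and 113 in the treated samples. The conditions were even further apart than for MRPS6, with a ratio of the means of 6.22 (17.2 ± 3.44 to 107 ± 12.6, SD, n = 3), and SLC5A3 rose with a log2 fold change of 2.58 (SE 0.20, adjusted p = 0.00012, limma). The genes share an exon at the annotated start of SLC5A3, and the last exon of SLC5A3, from 21.284 to 32.681 kb downstream of that start, covers a pair of short exons annotated to MRPS6. Together 265 exon bases are shared, 6.20% of those of MRPS6 and 2.29% of those of SLC5A3. How much of the rise in MRPS6 lies in the shared exons was not tested, since the values are given per gene and not per exon.

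**Figure D4:**
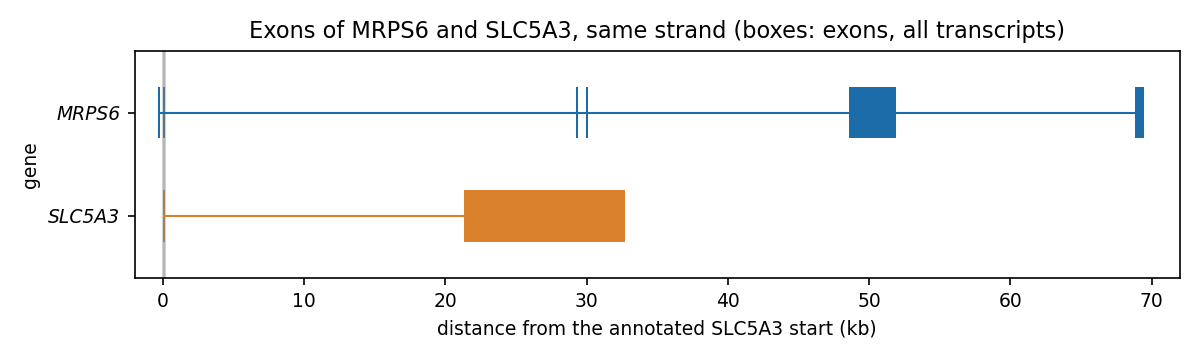
Annotated exons (boxes, all transcripts of GENCODE v44 on GRCh37) of MRPS6 and SLC5A3 by distance from the annotated start of SLC5A3 in kb (x axis), both on the plus strand. The grey band at 0 marks the shared exon, the last SLC5A3 exon spans 21.284 to 32.681 kb over a pair of short MRPS6 exons, and other MRPS6 exons lie at -0.354 kb and from 48.596 to 69.456 kb.

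In RefSeq the genes also share an annotated start. There (GRCh38.p14), where a promoter was taken as the 250 bases before to 50 bases after the annotated start, MRPS6 and SLC5A3 had the same window, chr21:34073328-34073627 on the plus strand. Its sequence is shown because it belongs to the only member called higher:

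MRPS6 and SLC5A3: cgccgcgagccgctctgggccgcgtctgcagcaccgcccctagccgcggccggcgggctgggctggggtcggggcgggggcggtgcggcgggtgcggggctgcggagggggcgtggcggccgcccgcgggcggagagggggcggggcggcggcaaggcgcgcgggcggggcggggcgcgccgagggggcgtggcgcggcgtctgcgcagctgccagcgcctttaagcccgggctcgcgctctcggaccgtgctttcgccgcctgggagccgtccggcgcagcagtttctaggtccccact

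Promoters were searched for the letters of factors that are known to act on nuclear genes for mitochondrial proteins, on both strands. In the sequences shown, capitals mark CCGGAAG (an ETS family motif, as bound by GABP), AAGATGGC (a YY1 motif) or GCATGCGC (an NRF1 motif), and none of these was in the window of MRPS6 and SLC5A3. MRPL57 and MRPS9, the members called lower, had none of them either:

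MRPL57 (chr13:21176408-21176707, plus strand): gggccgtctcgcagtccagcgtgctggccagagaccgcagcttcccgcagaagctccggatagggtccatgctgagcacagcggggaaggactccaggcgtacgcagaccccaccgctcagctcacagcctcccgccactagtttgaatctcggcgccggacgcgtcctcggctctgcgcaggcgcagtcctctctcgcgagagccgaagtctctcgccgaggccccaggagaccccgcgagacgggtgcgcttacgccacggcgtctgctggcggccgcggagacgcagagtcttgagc

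MRPS9 (chr2:105037819-105038118, plus strand): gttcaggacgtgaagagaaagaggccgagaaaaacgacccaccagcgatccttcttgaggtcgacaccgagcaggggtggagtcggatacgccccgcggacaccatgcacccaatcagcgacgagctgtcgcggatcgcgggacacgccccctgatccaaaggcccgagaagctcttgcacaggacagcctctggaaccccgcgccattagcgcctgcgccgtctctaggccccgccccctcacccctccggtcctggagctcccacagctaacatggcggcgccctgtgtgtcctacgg

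The promoter of MRPS12 is shown as 1 with both the ETS and the YY1 letters, and that of MRPL22, among the largest decreases, as 1 with the NRF1 and YY1 letters:

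MRPS12 (chr19:38930694-38930993, plus strand): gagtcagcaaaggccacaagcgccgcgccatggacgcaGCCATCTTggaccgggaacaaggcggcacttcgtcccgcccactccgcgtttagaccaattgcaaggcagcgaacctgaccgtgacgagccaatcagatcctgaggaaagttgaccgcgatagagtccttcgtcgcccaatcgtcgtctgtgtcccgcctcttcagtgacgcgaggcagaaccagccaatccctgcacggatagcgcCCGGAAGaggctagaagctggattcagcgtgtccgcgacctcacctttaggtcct

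MRPL22 (chr5:154940823-154941122, plus strand): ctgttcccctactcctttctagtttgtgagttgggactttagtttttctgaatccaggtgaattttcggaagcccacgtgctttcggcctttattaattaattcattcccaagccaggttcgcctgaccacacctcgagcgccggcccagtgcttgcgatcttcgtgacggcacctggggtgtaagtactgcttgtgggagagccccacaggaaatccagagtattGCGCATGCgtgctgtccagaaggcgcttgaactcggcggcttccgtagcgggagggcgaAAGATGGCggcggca

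A promoter was found for 68 of the 77 members. The ETS letters were in 29 of these (42.6%), beside 12.2% of the promoters of all 27305 genes and 20.6% of those of the 10847 tested genes with a promoter. The YY1 letters were in 21 members (30.9%), beside 3.52% and 6.12%, and the NRF1 letters in 6 (8.82%), beside 3.68% and 6.06%. Of the 68, 42 held the ETS or the YY1 letters and 8 held both, as MRPS12 did. The E-box letters CACGTG were in 9 members (13.2%, beside 8.77% and 11.97%) and the GC box letters GGGCGG in 41 (60.3%, beside 48.3% and 72.1%). EWSR1::FLI1, whose DNA-binding part is that of an ETS factor, is known to bind runs of GGAA, and GGAA repeated 3 times without a gap was in 0 members, beside 0.0952% and 0.101%.

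The letters did not divide the members into lower and higher ones. The median log2 fold change was -0.45 in the 29 members with the ETS letters and -0.64 in the others, -0.47 and -0.53 with and without the YY1 letters, and -0.52 and -0.51 with and without the NRF1 letters. For the E-box it was -0.38 and -0.56, and for the GC box -0.45 and -0.64. These shares and medians are a description without a test, a match is not a site of binding, and the absence of letters from a window says nothing of the factor.

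The rest of the mitochondrial translation machinery was mostly below 0 as well, with few calls. Of all genes tested, 54.8% were below 0, 23.6% were lower without overlap, 3.37% were called lower and 18.7% were lower at an unadjusted p under 0.05. The 6 ribosomal subunits known under other symbols (DAP3, AURKAIP1, CHCHD1, PTCD3, GADD45GIP1 and ICT1) were all below 0, with a median log2 fold change of -0.47, 4 of them without overlap, and 0 called by limma at adjusted p under 0.01 (2 at an unadjusted p under 0.05, 0 by limma-voom on reads). Of 25 assembly factors of the ribosome, 24 were below 0 with a median of -0.37, 14 were lower without overlap, and 0 were called (11 at an unadjusted p under 0.05, 0 by limma-voom). All 16 translation factors tested, which start, extend or end the protein chain or hold its mRNA, were below 0, with a median of -0.47, 11 without overlap and 0 called (8 at an unadjusted p under 0.05, 0 by limma-voom). Of 20 genes for mitochondrial aminoacyl-tRNA synthesis, which charge tRNAs with amino acids, 19 were below 0 with a median of -0.49, 11 were lower without overlap and 0 were called (10 at an unadjusted p under 0.05, 1 by limma-voom).

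Genes for transcription and replication of mitochondrial DNA had the lowest median, -0.76 over 9 genes, all below 0 and 6 without overlap (beside 54.8 and 23.6% of all genes). They held the only 2 calls of these lists (22.2% of the 9, beside 3.37% of all genes called lower). MTERF1, a factor that binds mitochondrial DNA and stops transcription, stood at 20.3, 21.03 and 22.7 FPKM in the untreated samples and at 8.41, 7.91 and 10.7 in the treated samples. It fell by 1.17 on the log2 scale (adjusted p = 0.00281, limma), and the conditions were well apart. TFAM, which packages mitochondrial DNA and starts its transcription, stood at 34.7, 36.1 and 41.4 FPKM and at 13.5, 17.9 and 20.96, and fell by 1.07 (adjusted p = 0.00825, limma). Without EWSR1::FLI1 high replicates 1, 2 or 3 or EWSR1::FLI1 low replicate 2, the adjusted p was 0.0165, 0.0204, 0.0225 and 0.0119 for MTERF1 and 0.0336, 0.0420, 0.0516 and 0.0226 for TFAM. Transcripts encoded by mitochondrial DNA itself, including the ribosomal RNAs of the mitochondrial ribosome, were not analysed here.

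**Figure D5:**
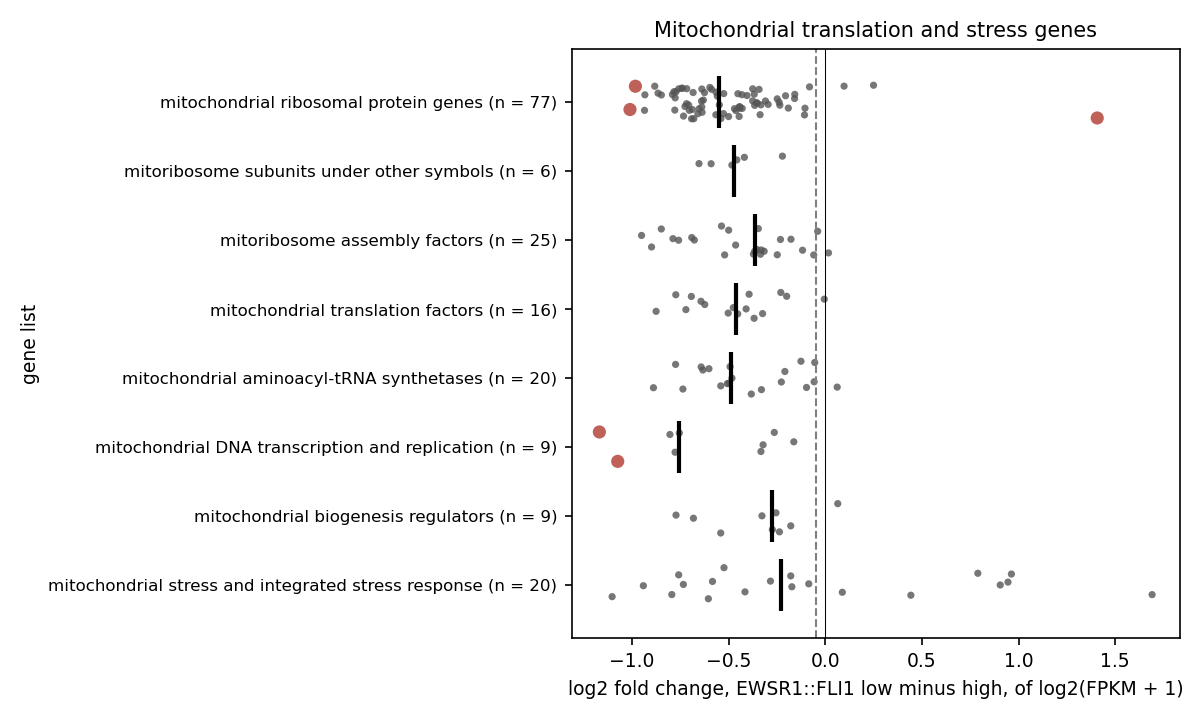
Log2 fold change of log2(FPKM + 1), EWSR1::FLI1 low minus EWSR1::FLI1 high (x axis), for genes of 8 lists (y axis, 1 point per gene), with black bars for the list medians, a dashed line for the median of all genes tested and larger red points for genes with an adjusted p under 0.01. The 77 ribosomal protein genes have their median at -0.55 with MRPS6 apart at 1.41, the mitochondrial DNA list has the lowest median (-0.76), and the stress list spreads to both sides of 0.

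Among 9 regulators of mitochondrial biogenesis, 8 were below 0 (beside 54.8% of all genes) with a median log2 fold change of -0.27. Of the 9, 0 were called, beside 3.37% of all genes called lower and 4.51% called higher. At an unadjusted p under 0.05, 3 were lower, beside 18.7%, and 1 was lower by limma-voom, beside 784 of the 15504 genes. Inhibition of the mitochondrial ribosome is known to start the integrated stress response in many cells, in which the factor ATF4 turns on genes for amino acid synthesis. The 20 genes of that response and of mitochondrial stress did not move 1 way. Of these, 13 were below 0 (65%, beside 54.8% of all genes) and 7 above, with a median of -0.23. Of the 20, 0 were called, beside 3.37% of all genes called lower and 4.51% called higher (6 lower and 3 higher at an unadjusted p under 0.05, beside 18.7 and 15.6%, and 0 by limma-voom). ATF4 and the other genes of the list lay between -1.10 (ATF5) and 1.69 (DDIT4), with an adjusted p of 0.0797 and 0.0515, and both of these were named after their values were seen. Summed over the list, expression was 1345, 1573 and 1420 FPKM in the untreated samples and 740, 1560 and 1141 in the treated samples. The treated samples thus differed among themselves by more than the untreated ones, and replicate 2 was the highest in both conditions. Relative to the EWSR1::FLI1 high mean, the median gene of the list stood at -0.10, 0.28 and -0.18 (log2) in the untreated samples. In the treated samples it stood at -0.82, 0.27 and -0.27. Whether equally numbered samples share an effect on these genes was not tested.

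Genes for the cytosolic ribosome, which makes the proteins that mitochondria import, and for the respiratory chain, which mitochondrial translation serves, were set beside the members. Of 82 cytosolic ribosomal protein genes tested, 71 were below 0, beside 54.8% of all genes, with a median log2 fold change of -0.15 and 21 (25.6%) lower without overlap, close to the 23.6% of all genes. RPL36A was the only 1 called lower, from a mean of 6.39 to 2.73 FPKM (log2 fold change -0.98, adjusted p = 0.00753, limma), and its adjusted p was above 0.01 without any 1 of the EWSR1::FLI1 high libraries or without EWSR1::FLI1 low replicates 2 or 3 (up to 0.0409). Of 80 nuclear genes for the respiratory chain and the ATP synthase, 74 were below 0, with a median of -0.30 and 29 (36.2%) lower without overlap. Of the 80, 0 were called, beside 3.37% of all genes called lower (20 lower at an unadjusted p under 0.05, beside 18.7%, and 0 by limma-voom). In the treated samples the median respiratory chain gene stood at -0.51, -0.38 and -0.02 (log2) relative to the EWSR1::FLI1 high mean and the median cytosolic ribosomal protein gene at -0.27, -0.11 and -0.04, against -0.89, -0.53 and -0.19 for the mitochondrial ribosomal protein genes. On this scale the order of the libraries was the same in the 3 groups of genes. As a share of all FPKM it was not. The cytosolic genes made up 7.04, 7.53 and 7.11% in the untreated samples and 8.10, 6.85 and 6.73% in the treated samples. The respiratory chain genes made up 2.22, 2.21 and 2.03% and 2.02, 1.68 and 2.04%, so that the conditions overlapped in both groups. The differences between the groups were not tested.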

How the data were processed

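The 6 RNAseq samples were grouped by their labels into EWSR1::FLI1 high (3) and EWSR1::FLI1 low (3). The submitters' processing notes name STAR 2.5.0b, bedtools 2.17.0 and Cufflinks 2.2.1, and the genome build was GRCh37. The authors deposited an FPKM table with 1 row per gene symbol and 1 column per library, already scaled between libraries. From the table that holds their comparison of the conditions, only the deposited mean signal per gene (a mean normalized count over the 6 libraries) was used, and its fold changes and p-values were left out. FPKM multiplied by the ratio of that mean signal to the gene's mean FPKM gave a normalized count. The value of a single read in each library was inferred from the smallest of the frequent low values. Multiplied by the resulting factor of the library (0.829 to 1.67), the counts came out as whole reads, to within 0.1 reads, for 100.0% of the values above 0. Read counts cover counting error only. The values tested were log2(FPKM + 1), with limma 3.58.1 (functions lmFit and eBayes, the latter with its trend option; R 4.3.3), a scale that understates changes of low genes. It was run on the 15504 genes that reached a mean FPKM of 0.5, with Benjamini-Hochberg adjustment and a limit of 0.01, and was tested on simulated data. Reads recovered from the FPKM were tested with limma-voom as an alternative. No pair of replicates had reads as alike as repeat deposits of a single library would be, so none was merged, which does not show that the samples are independent. Tables and figures were made with Python 3.11.15 (pandas 2.3.3, scipy 1.17.1, matplotlib 3.10.9).

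The members and gene lists were chosen with earlier results of these data known. Genes were named by rule: MRPL12, MRPS12, called members, the 5 largest rises and falls, the 3 highest and 3 lowest means, the MRPS18 genes, up to 4 called genes per other list, and FLI1. Others are said to be named after their values were seen. Gene coordinates and shared exons are from GENCODE v44 lifted to GRCh37, and promoters from RefSeq (GRCh38.p14). Alternatives were another pseudocount (0.1), no filter or a higher one (mean FPKM of 1), scaling by median ratios or quantiles, eBayes with no trend, a replicate block, limma-voom, sample quality weights, a limit of 0.05 and leaving out each library.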

Additional observations from a re-analysis of the deposited data

How the results depend on the processing

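The median log2 fold change of the 77 genes stayed below 0 under every alternative run, between -0.72 and -0.36 with libraries left out and at -0.41 under quantile normalization and -0.48 with sample quality weights, beside -0.55 as reported. Counts of calls moved more. The members called lower numbered 2 of 77 as reported, beside 522 of the 15504 genes tested. Without the filter on low values they numbered 0, beside 297 of 24488 genes. They numbered 4 with a replicate block (beside 786 of 15504) and 4 by limma-voom on recovered reads (beside 784), shares close to those of all genes. The members' share was larger than that of all genes under quantile normalization (14, beside 1000), with sample quality weights (36, beside 2257) and at adjusted p under 0.05 (17, beside 1537). With a library left out, where fewer samples entered the fit, they numbered 0 to 7, beside 157 to 807. The members called higher, 1 as reported, numbered 0 to 1 with a library left out. Over all genes, those called lower (522) numbered 297 without the filter, 1000 under quantile normalization, 786 with a replicate block, 784 by limma-voom, 2257 with sample quality weights, 1537 at adjusted p under 0.05 and 157 to 807 with a library left out. Those called higher (700) numbered 456 without the filter, 2488 with sample quality weights, 1530 at adjusted p under 0.05 and 308 to 1527 with a library left out. In the lists of mitochondrial translation and stress genes together, those called lower (2) numbered 1 without the filter, 15 under quantile normalization, 4 by limma-voom, 31 with sample quality weights, 22 at adjusted p under 0.05 and 0 to 5 with a library left out, and those called higher (0) numbered 2 with a replicate block, 6 with sample quality weights and 0 to 1 with a library left out. The quality weights gave EWSR1::FLI1 low replicate 1 a weight of 0.172, against 0.463 to 2.79 for the others. Other causes of these differences were not tested.

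Signs turned for members close to 0. Under quantile normalization MRPS21 was at 0.10 and MRPL17 at 0.076, MRPL17 was at 0.0097 with sample quality weights and between -0.24 and 0.089 with a library left out, and MRPL33 lay between -0.040 and 0.35 with a library left out.

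The labels give both conditions the replicate numbers 1 to 3. The deviations of equally numbered libraries from their condition means correlated with r of 0.27, 0.09 and 0.12 for numbers 1, 2 and 3. Among unequal numbers, r was 0.19 between EWSR1::FLI1 high replicate 3 and EWSR1::FLI1 low replicate 2. In every other unequal pair it was below 0, between -0.29 and -0.008. The numbers may thus pair the samples, which was not settled, and the main fit did not pair them. With the replicate block the calls of MRPS6, MRPL57 and MRPS9 held, and 2 more members were called lower. Over all genes, those called lower went from 522 to 786.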

Other observations

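Rows of the table that carry similar symbols but are not ribosomal protein genes were also read, with the genes they copy or adjoin. The pseudogene MRPS31P5 stood at 3.30, 2.55 and 2.66 FPKM in the untreated samples (replicates 1, 2 and 3) and at 3.31, 2.65 and 2.94 in the treated ones, while MRPS31 itself stood at 50.8, 53.0 and 59.0 and at 33.1, 32.7 and 37.8. MRPL45P2 stood at 2.05, 2.07 and 1.29 FPKM and at 2.90, 1.40 and 1.56, and MRPL45 at 23.97, 23.8 and 34.1 and at 18.1, 22.2 and 21.5. Both pseudogene rows overlapped between the conditions, with log2 fold changes of 0.05. How reads that fit a gene and its copy were assigned is not given in the sources used here. The readthrough row URGCP-MRPS24 held at most 1 read in a library, and the antisense row MRPL23-AS1 held 1 read in EWSR1::FLI1 low replicate 1 and 0 in the others. URGCP, upstream of MRPS24, stood at 5.51 to 7.03 FPKM in EWSR1::FLI1 high and 5.42 to 7.06 in EWSR1::FLI1 low, without a difference beyond the spread of the samples (log2 fold change -0.04, adjusted p = 0.906, limma).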
